A study of Mus musculus with 5 samples.

Results

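The interferon-stimulated gene *Ifi27l2a* had a lower level in the hippocampus of *Hdac1* conditional knockout (cKO) mice than in controls, and 8 further interferon-stimulated genes were examined beside it to see whether the decrease was shared. The 9 members were *Ifi27l2a*, *Ifi27*, *Ifit1*, *Ifit3*, *Irf7*, *Isg15*, *Oasl2*, *Usp18* and *Bst2*, out of 23361 gene rows in each library. *Ifi27l2a* was chosen by its low FPKM in the cKO libraries of this same comparison, and the others were selected by name as genes that interferon induces, with results of these libraries already known. The differences of the 9 genes between control and cKO are therefore a description, with no test. All 9 were present in each library, 8 under the names above and *Ifi27* under its older symbol *Ifi27l1*.

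RNA-seq was performed on total RNA from hippocampus of male mice aged 3 months. The 2 control libraries came from Hdac1f/f mice, in which the floxed *Hdac1* allele is intact, and the 3 cKO libraries came from mice of the genotype Hdac1f/f, Nestin-Cre. The floxed allele was thus carried by all 5, and Cre by the cKO group alone, so *Hdac1* deletion and the presence of the Cre transgene cannot be told apart. *Nestin-Cre* acts in neural progenitors and removes *Hdac1* from neurons and astrocytes, while microglia keep the gene. The 2 control and 3 cKO libraries match the numbers of mice given for the experiment.

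Type I interferons bind a receptor made of IFNAR1 and IFNAR2, which activates the kinases JAK1 and TYK2. These activate a transcription factor complex that contains STAT2 and IRF9, and this complex binds the interferon-stimulated response element (ISRE) in the promoters of interferon-stimulated genes. In the healthy brain the pathway runs at a low tonic level, and microglia, astrocytes and vessel cells are among the cells that respond to interferon.

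The promoters of the members were read to show the element through which this complex acts. RefSeq promoter windows of the GRCm38.p6 build, from 250 bases before to 50 bases after the start of the gene, were matched for 6 of the 9 members, namely *Ifit1*, *Ifit3*, *Irf7*, *Isg15*, *Oasl2* and *Bst2*. No window was matched for *Ifi27l2a*, *Ifi27* and *Usp18*. The core of the ISRE was searched as GAAANNGAAA on both strands. It was found in 4 of the 6 windows, against 3.45% of 32544 promoter windows of the same length. The 160 bases just before the start of each of these 4 genes are given 5′ to 3′ in the direction of the gene, with each match in capitals, because these are the windows in which the element can be seen.
Ifit1: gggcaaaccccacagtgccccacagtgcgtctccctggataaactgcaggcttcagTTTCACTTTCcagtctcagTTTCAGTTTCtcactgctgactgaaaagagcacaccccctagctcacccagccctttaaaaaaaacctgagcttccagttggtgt
Ifit3: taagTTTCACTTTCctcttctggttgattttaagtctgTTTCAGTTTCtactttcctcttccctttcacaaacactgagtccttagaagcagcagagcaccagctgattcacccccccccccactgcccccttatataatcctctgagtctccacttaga
Isg15: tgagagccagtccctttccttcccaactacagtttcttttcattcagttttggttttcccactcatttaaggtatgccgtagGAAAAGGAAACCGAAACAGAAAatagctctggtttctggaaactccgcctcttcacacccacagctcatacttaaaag
Bst2: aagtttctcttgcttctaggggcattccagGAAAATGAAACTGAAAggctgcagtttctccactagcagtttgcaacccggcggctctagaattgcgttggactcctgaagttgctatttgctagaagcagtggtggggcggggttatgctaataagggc

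The *Ifit1* stretch lies at chr19:34640729-34640888 on the plus strand, with 2 matches that begin at positions −104 and −85 from the start of the gene. *Ifit3* lies on the same strand at chr19:34583369-34583528, with 2 matches at −156 and −122. In both, the matches are on the opposite strand, so the capitals read TTTC. *Isg15*, at chr4:156200819-156200978 on the minus strand, has 3 matches at −78, −72 and −66 that overlap into one run. *Bst2*, at chr8:71537473-71537632 on the minus strand, has 2 overlapping matches at −130 and −124. The window of *Irf7* (chr7:141266375-141266674, minus strand) and that of *Oasl2* (chr5:114896684-114896983, plus strand) held no such letters. A match of letters is a description and not a measured binding site.

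*Ifi27l2a* codes for a small membrane protein of the interferon-inducible IFI27 family. Its level was 4.10 and 2.77 FPKM in controls 1 and 2, and 0.504, 0 and 1.94 FPKM in cKO 1, 2 and 3. Every cKO library was below both controls, the library nearest to them was cKO 3, and cKO 2 had no signal. The mean was 3.43 ± 0.94 FPKM in control (SD, n = 2) and 0.815 ± 1.01 FPKM in cKO (SD, n = 3), which is 23.7% of the control mean. On the log2(FPKM + 1) scale the difference was −1.42 (SE 0.61).

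The number of sequenced fragments behind these levels was small. Estimated from FPKM, transcript length and the depth of each library, *Ifi27l2a* had about 9 and 6 fragments in the controls and about 1, 0 and 4 in cKO 1, 2 and 3, or 15 in the 2 controls and 5 in the 3 cKO libraries. The exact 95% Poisson interval was 4.12 to 17.1 fragments for control 1 and 2.2 to 13.1 for control 2. In cKO 3 it was 1.09 to 10.2 fragments, and in cKO 1 0.0253 to 5.57, and both overlap each control interval. A count of 0, as in cKO 2, allows up to 3 fragments (a one-sided limit), which overlaps the interval of control 2. These intervals cover counting error only. The estimates of control 1 and cKO 1 are approximate, since few of their values fell near whole numbers.

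The gene lies at chr12:104680377-104681890 on the minus strand (mm9), with a single annotated transcript of 463 nt. Of these, 215 nt lie within exons of its neighbour *Ifi27l2b* on the same strand, and their transcripts were 87.2% identical over 273 nt, so reads could be split between them. *Ifi27l2b* was listed at 0 in all 5 libraries, so the sum of both genes equals the level of *Ifi27l2a* alone.

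*Ifi27* is the closest of the 8 other genes to *Ifi27l2a* by family and position, at chr12:104672421-104678449 on the plus strand. Its level was 38.4 and 38.3 FPKM in controls, and 41.4, 43.7 and 42.5 FPKM in cKO. All 3 cKO libraries were above both controls, which is the opposite direction to *Ifi27l2a*. The difference was 0.15 (SE 0.029) on the log2(FPKM + 1) scale, or a cKO mean of 111% of control, and 0.081 when libraries were scaled to a common total (TPM). *Ifi27* was by far the most abundant member in every library, and its transcript was 69.8% identical to that of *Ifi27l2a* over 248 nt. The summed level of 9 astrocyte markers moved the same way, at 1672 and 1679 FPKM in controls and 1910 to 2026 FPKM in cKO, and its part in the *Ifi27* difference was not tested. *Slc1a2*, *Slc1a3* and *Gfap* made up most of that sum. Of the 9 markers 7 were higher and 2 lower in cKO, 5 were higher without overlap (*Gfap*, *Slc1a3*, *Slc1a2*, *Gja1* and *S100b*) against 11.0% of all tested genes, and 1 was called higher at an unadjusted p under 0.05 in limma, against 2.37%.

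**Figure D1:**
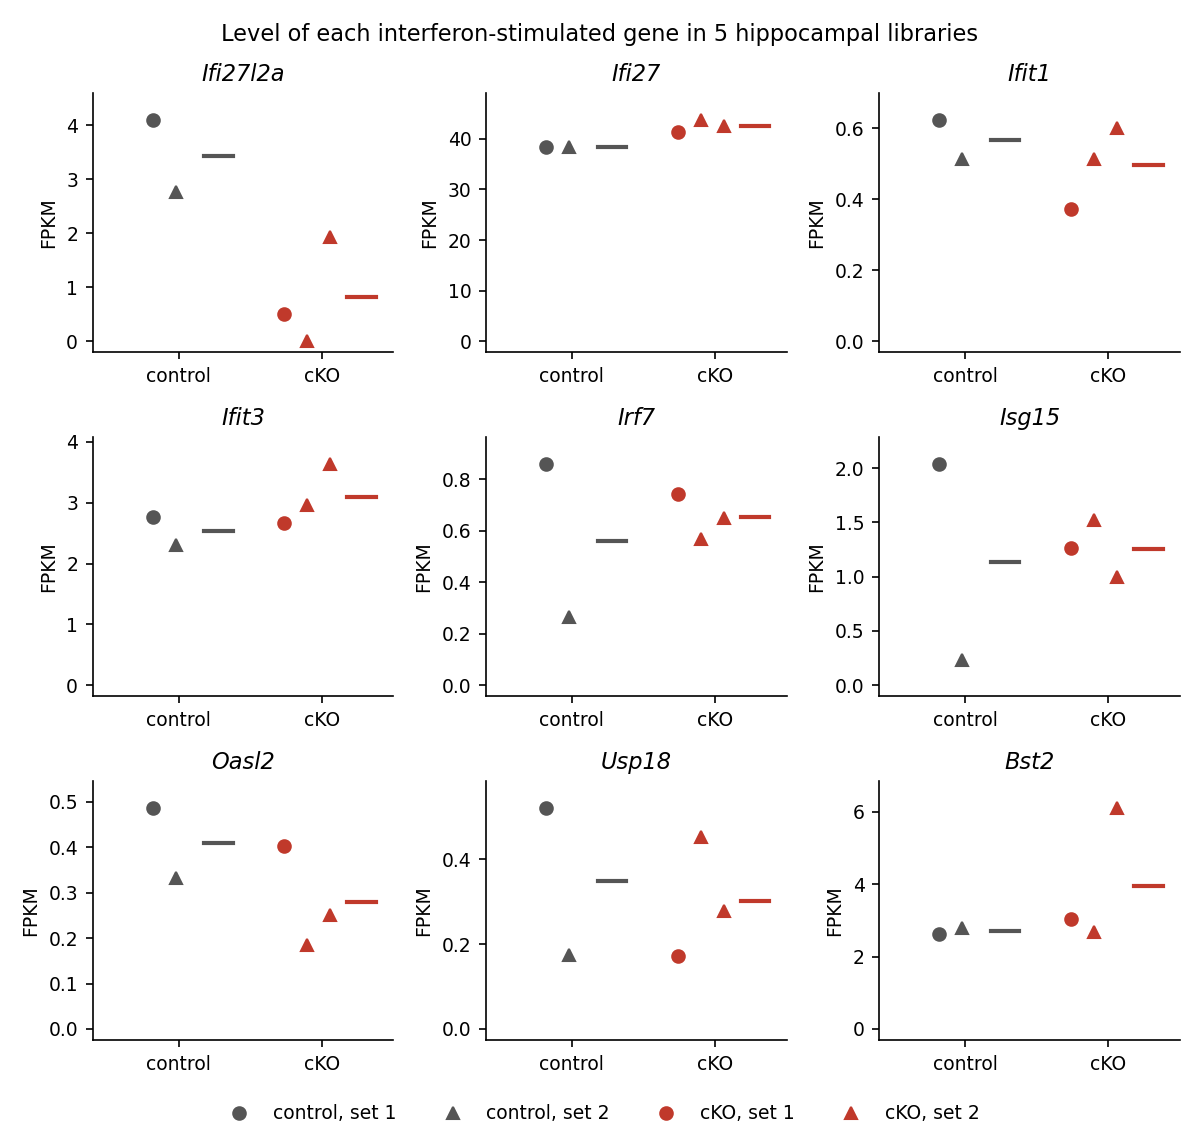
FPKM of each member (vertical axis, separate scale per gene) in the 2 control and 3 cKO libraries, where points are libraries, horizontal bars are group means and the symbol gives the set of libraries described in the text. *Ifi27l2a* is the only member whose cKO libraries, at 0 to 1.94 FPKM, all lie below the controls, and *Ifi27* the only one whose cKO libraries all lie above them.

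*Ifit1* and *Ifit3* code for proteins that bind foreign RNA and block its translation, and both carry the ISRE core shown above. *Ifit1* was at 0.623 and 0.513 FPKM in controls and at 0.373, 0.514 and 0.601 FPKM in cKO. The groups overlapped, with cKO 2 and cKO 3 between the 2 controls, and the difference was −0.07 (SE 0.092), and −0.0095 without cKO 1. *Ifit3* was at 2.76 and 2.31 FPKM in controls and at 2.66, 2.97 and 3.64 FPKM in cKO.

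For *Ifit3* cKO 1 lay between the controls and the other 2 cKO libraries above them, with a difference of 0.21 (SE 0.15), and 0.11 without control 2 or without cKO 3. Its transcript was 97.8% identical over 1700 nt to that of its neighbour *I830012O16Rik*, so reads of the 2 genes are uncertain. On its own, *I830012O16Rik* was at 1.69 and 1.68 FPKM in controls and 1.45, 1.67 and 1.53 FPKM in cKO. It was lower without overlap, as 9.41% of all tested genes were, with a difference of −0.077. Summed with that copy, the level of *Ifit3* was 4.46 and 3.98 FPKM in controls and 4.11, 4.64 and 5.17 FPKM in cKO, and the groups still overlapped.

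*Irf7* codes for the transcription factor that amplifies the type I interferon response. It was at 0.859 and 0.264 FPKM in controls and at 0.743, 0.567 and 0.65 FPKM in cKO. All 3 cKO libraries lay between the controls. The difference of 0.11 (SE 0.22) became −0.17 without control 2. Its exons share 45 of 3023 nt with *Phrf1* on the opposite strand, and reads there cannot be told apart unless strand was used.

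*Isg15*, *Usp18* and *Oasl2* belong to the ubiquitin-like arm of the response: ISG15 is a ubiquitin-like protein that is joined to other proteins, USP18 removes it and also dampens signalling at IFNAR2, and OASL2 carries ubiquitin-like domains beside an oligoadenylate synthetase domain. *Isg15* was at 2.04 and 0.236 FPKM in controls and at 1.26, 1.52 and 0.994 FPKM in cKO. Every cKO library lay between the controls, which themselves rested on about 9 and 1 fragments. The difference was 0.21 (SE 0.50) and became −0.44 without control 2 and 0.86 without control 1.

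*Usp18* was at 0.521 and 0.175 FPKM in controls and at 0.173, 0.452 and 0.277 FPKM in cKO. No library rested on more than about 6 fragments, the groups overlapped, and the difference was −0.045 (SE 0.18). It became 0.14 without control 1 and 0.026 without cKO 1. *Oasl2* was at 0.487 and 0.333 FPKM in controls and at 0.403, 0.184 and 0.25 FPKM in cKO. Here cKO 2 and cKO 3 lay below both controls and cKO 1 between them, with a difference of −0.14 (SE 0.11; −0.063 without control 1 and −0.22 without control 2), on 17 estimated fragments in the 2 controls and 17 in the 3 cKO libraries.

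*Bst2* codes for tetherin, a membrane protein that holds budding viruses at the cell surface. Its level was 2.62 and 2.79 FPKM in controls and 3.04, 2.69 and 6.11 FPKM in cKO. The higher cKO mean came from cKO 3, which had about 25 fragments against 9 to 13 in the other 4 libraries. The difference was 0.35 (SE 0.38), and 0.061 without cKO 3.

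**Figure D2:**
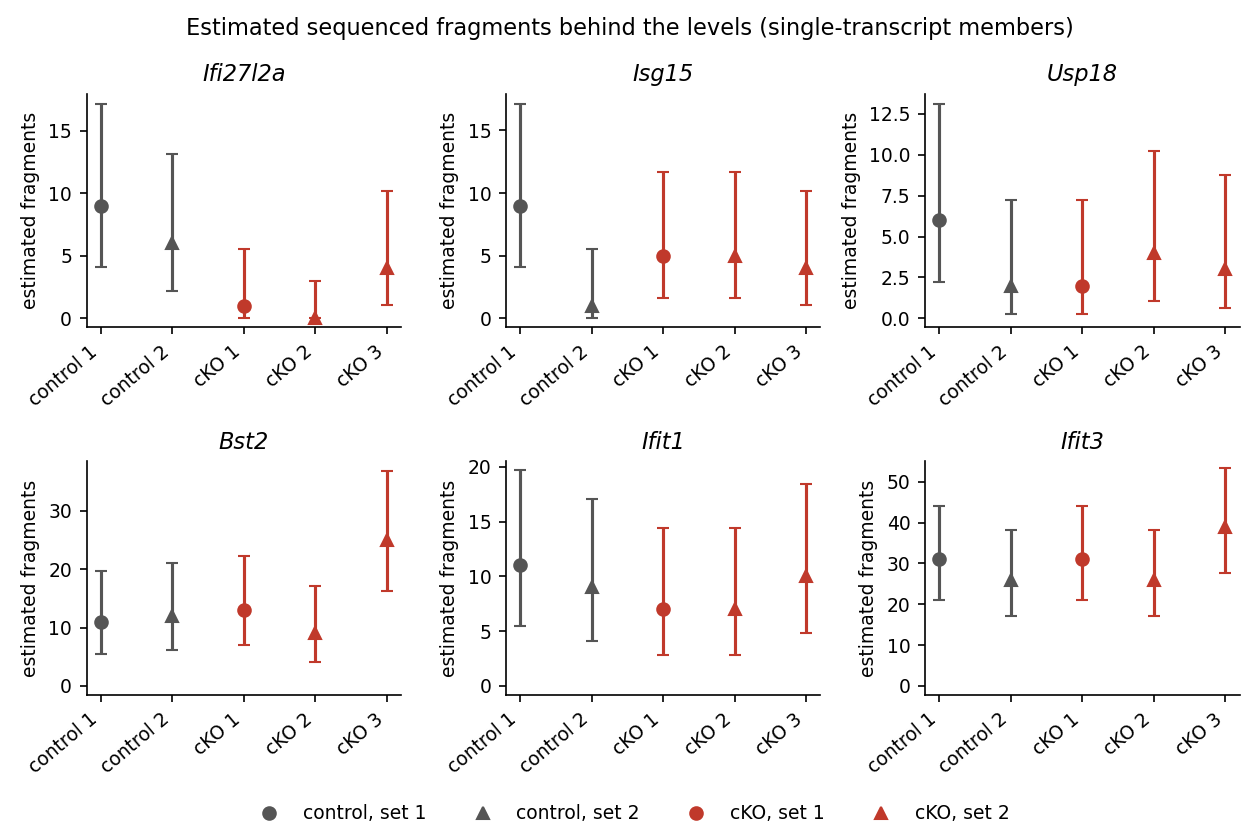
Estimated number of sequenced fragments (vertical axis) per library for the 6 members with a single annotated transcript, with exact two-sided 95% Poisson intervals as bars, except that the bar of a 0 ends at the one-sided limit of 3 fragments. For *Ifi27l2a* the estimates are 9 and 6 in controls and 1, 0 and 4 in cKO, and the intervals of cKO 1 and cKO 3 overlap those of both controls.

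Across the 9 genes, 4 had a lower mean difference in cKO and 5 a higher one. Over the 12740 tested genes, those that averaged 1 FPKM or more, 46.3% were lower in cKO. Among the 5 members in that set only *Ifi27l2a* was lower, and the other 3 with a lower value (*Ifit1*, *Oasl2* and *Usp18*) averaged less than 1 FPKM, so the count of 4 of 9 and this share are not over the same kind of genes. The groups did not overlap for 2 members, 1 lower (*Ifi27l2a*, on whose fall the set was selected) and 1 higher (*Ifi27*). Over all genes, 9.41% were lower without overlap and 11.0% were higher without overlap. The median difference was 0.11 over the 9 members and 0.13 over the 8 without *Ifi27l2a*, against 0.015 over all tested genes. Without control 2 the median of the 9 turned to −0.17 and 6 of them were lower. Only 5 members (*Ifi27l2a*, *Ifi27*, *Ifit3*, *Isg15* and *Bst2*) reached a mean of 1 FPKM, and *Ifit1*, *Irf7*, *Oasl2* and *Usp18* did not.

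In order of mean level over the 5 libraries, *Ifi27* (40.9 FPKM) was followed by *Bst2* (3.45), *Ifit3* (2.87), *Ifi27l2a* (1.86), *Isg15* (1.21), *Irf7* (0.617), *Ifit1* (0.525), *Oasl2* (0.331) and *Usp18* (0.32). The place of *Ifi27l2a* in this order differed by group: its mean of 3.43 FPKM in controls was above *Bst2* (2.7) and *Ifit3* (2.54), and its mean of 0.815 FPKM in cKO was below *Isg15* (1.26). *Ifi27* stood above the rest in each library, and below it the ranges of each pair of neighbours overlapped. The 7 members other than *Ifi27* and *Ifi27l2a* summed to 9.92 and 6.61 FPKM in controls and 8.65, 8.9 and 12.5 FPKM in cKO. Control 1 had the highest level of 6 members and control 2 the lowest of 4.

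Low FPKM values move in steps of 1 fragment, and their steps placed the libraries in 2 sets, control 1 with cKO 1 and control 2 with cKO 2 and cKO 3. Since each set holds libraries of both groups, the difference could be read within each. *Ifi27l2a* was lower in both, by −1.76 in set 1 and −1.14 in set 2, and *Oasl2* was lower by −0.083 and −0.13. *Ifi27* was higher in both, by 0.11 and 0.17, and so was *Bst2*, by 0.16 and 0.44. The other 5 changed direction between sets. That could not happen for *Ifi27l2a* and *Ifi27*, whose groups did not overlap, so no support is drawn from their shared direction. For *Isg15* the difference was −0.43 in set 1 and 0.86 in set 2, and for *Usp18* it was −0.37 and 0.21.

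**Figure D3:**
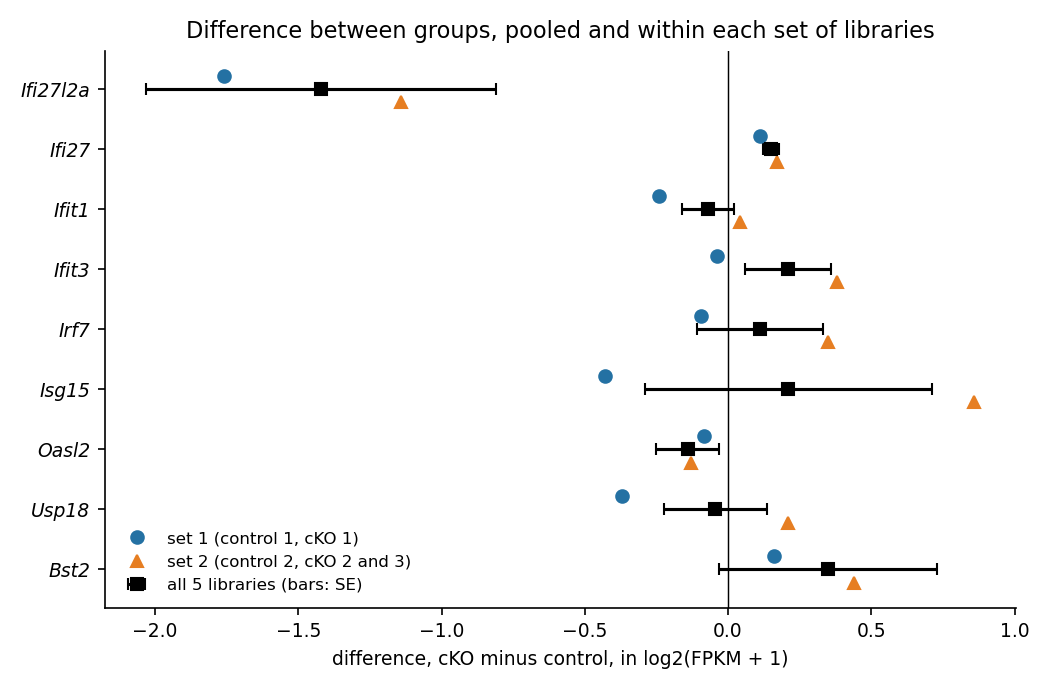
Difference between cKO and control on the log2(FPKM + 1) scale (horizontal axis) for each member, from all 5 libraries (squares, bars are SE) and within each set of libraries (circles and triangles, no error). *Ifi27l2a* lies at −1.42 with −1.76 and −1.14 within sets, where its sign could not turn since its groups did not overlap. The other 8 lie between −0.14 and 0.35, with 5 of them on different sides of 0 in the 2 sets.

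Other genes of the interferon system were taken from 4 lists and tested with limma over all 12740 genes. At an unadjusted p under 0.05, 4.36% of all tested genes were called, 2.37% higher and 1.99% lower. A fold of 1.5 together with that p, the threshold in the methods of the study, called 0.659%, and an adjusted p under 0.05 called 0.00785%, which is 1 gene. In the main fit, no gene of the 4 lists passed the fold together with the unadjusted p, or the adjusted p. Their smallest adjusted p in limma was 0.955. Under other settings that keep both controls, some passed the fold with the unadjusted p. *Ifitm1* did with the set of libraries as a block (0.74) and without cKO 3 (1.04). It also did with replicate number as a block (1.04), where cKO 3 has no weight since no control shares its number. That is thus the same difference as without cKO 3. *Gbp3* passed with a pseudocount of 0.1 (0.65). Where 1 control remains only sizes are given. Without control 2, for example, the difference was −0.64 for *Tmem173*, −0.72 for *Psmb9* and 0.58 for *Ifitm1*.

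Among other interferon-induced effectors, 25 of the 53 listed genes were tested, 2 were higher at the unadjusted p and none was lower, 8% in all, with a median difference of 0.052. *Gbp3*, a guanylate-binding GTPase, was at 1.62 and 1.43 FPKM in controls and 2.77, 2.5 and 2.1 FPKM in cKO, a difference of 0.45 (limma SE 0.15, unadjusted p = 0.0186). *Ifit2*, of the same family as *Ifit1* and *Ifit3*, was at 1.8 and 2.09 FPKM in controls and 2.92, 2.69 and 2.56 FPKM in cKO, a difference of 0.34 (limma SE 0.14, unadjusted p = 0.0431). In both genes all cKO libraries were above the controls, the reverse of *Ifi27l2a*. These calls were not all kept when a cKO library was left out, which also leaves fewer libraries to test. The sign of the differences could not turn with 1 library left out, since the groups did not overlap. *Ifit2* was no longer called when any 1 of the cKO libraries was left out. *Gbp3* remained called without cKO 2 or cKO 3 and not without cKO 1. Over all 5 leave-outs the differences were 0.27 to 0.41 for *Ifit2* and 0.39 to 0.53 for *Gbp3*. *Ifitm1* was called beside *Gbp3* without cKO 3.

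The difference of largest size in this list was that of *Ifitm1*, an inhibitor of viral entry, at 0.68. It was 1.04 without cKO 3 and 0.47 without cKO 2. *Ifitm1* was at 2.33 and 1.91 FPKM in controls and at 5.19, 5.62 and 2.01 FPKM in cKO, where cKO 3 lay between the controls. The largest negative differences were those of *Gbp2* (−0.29, and −0.11 without control 2) and *Lgals3bp* (−0.25, and −0.091 without control 1). *Gbp2*, a relative of *Gbp3*, was at 1.31 and 1.97 FPKM in controls and 0.94, 1.19 and 1.3 FPKM in cKO, lower without overlap although cKO 3 all but met control 1. Of the rest of the list, 27 genes were below the minimum level and not tested, of which *Ifi44l*, *Oas3* and *Ifi205* were listed at 0 in all 5 libraries, and 1 name had no row.

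Among ligands, receptors and signalling genes no difference was called. Of 23 listed, 17 were tested and 0 passed the unadjusted p in limma, with a median difference of −0.0055. The receptor chains *Ifnar1* and *Ifnar2* differed by −0.022 and −0.012, and the kinases *Jak1* and *Tyk2* by −0.017 and −0.0055. The transcription factor genes *Stat2* and *Irf9* differed by −0.0041 and −0.15. Apart from *Irf9*, each of these changed sign when certain single libraries were left out. For example, *Ifnar1* was 0.091 and *Jak1* 0.12 without control 2, and *Ifnar2* was 0.13 without cKO 1. *Irf9* was at 2.36 and 3.11 FPKM in controls and 2.64, 2.09 and 2.33 FPKM in cKO, with overlapping groups. *Irf1*, a transcription factor induced mainly by interferon gamma, was at 3.21 and 3.24 FPKM in controls and 2.65, 2.76 and 2.95 FPKM in cKO, lower without overlap but short of the test (difference −0.16). *Irf5* and *Ptpn2* had the largest positive differences, at 0.22 and 0.13. Without control 2 these were 0.069 and 0.023, and that of *Irf9* was −0.006. *Ifnar2* shares 569 of 3898 exonic nt with *Il10rb* on the same strand, and *Irf5* 411 of 2903 with *Tnpo3* on the opposite one, so their reads are uncertain. The ligand genes *Ifnb1*, *Ifna2*, *Ifna4* and *Ifng* were listed at 0 in all libraries.

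Nucleic acid sensors feed the pathway from above, since they switch on interferon genes. Of 21 listed, 15 were tested and 1 was called, with a median of 0.039. This was *Tlr3*, the endosomal receptor for double-stranded RNA, at 3.19 and 3.87 FPKM in controls and 4.88, 4.42 and 5.15 FPKM in cKO, a difference of 0.36 (limma SE 0.14, unadjusted p = 0.0289). *Myd88* differed by 0.16, *Tmem173* by −0.32 and *Irf3* by −0.21, all with overlapping groups. *Myd88* became −0.0067 without cKO 1 and 0.0054 without control 2. *Tmem173* and *Irf3* rested on control 1, without which they were −0.0052 and 0.015, against −0.64 and −0.44 without control 2. Antigen presentation genes, which interferons also induce, gave 1 call among 13 tested of 15 listed, with a median of 0.072. *H2-K1*, a class I histocompatibility chain, was at 12.9 and 13 FPKM in controls and 15.1, 15.3 and 18.1 FPKM in cKO, a difference of 0.29 (limma SE 0.12, unadjusted p = 0.0348). *Erap1* differed by 0.18 (−0.015 without control 1), *Psmb9* by −0.36 (−0.0061 without control 1) and *H2-T23* by −0.21 (−0.064 without cKO 1), again with overlap. Without cKO 3, both lists had 0 calls. Calls without a control are not given, since 1 control library would remain. Without control 2 the differences were 0.47 for *Tlr3*, 0.30 for *H2-K1* and −0.72 for *Psmb9*. Without cKO 1 the sensing call was *Rnaseh2c*, which was lower, in place of *Tlr3*. Without cKO 2 both *Tlr3* and *H2-K1* remained called. Over the 5 leave-outs the difference was 0.25 to 0.47 for *Tlr3* and 0.22 to 0.34 for *H2-K1*. The sign could not turn there, since all cKO libraries lay above the controls for both genes.

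**Figure D4:**
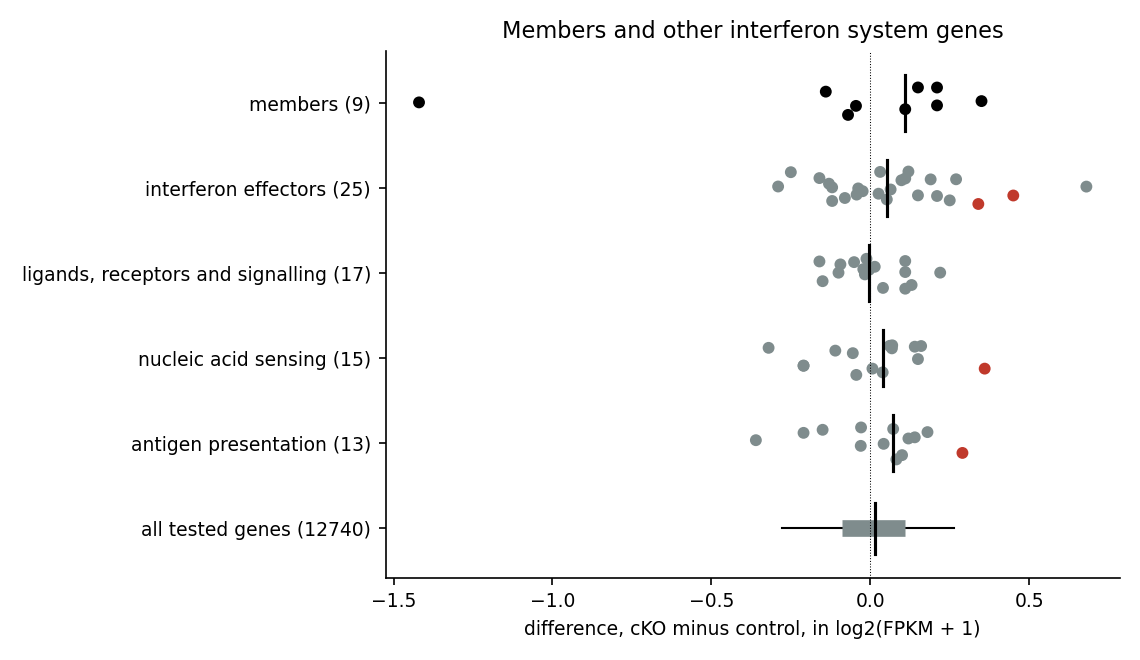
Differences between cKO and control on the log2(FPKM + 1) scale (horizontal axis) for the 9 members and the tested genes of 4 lists, where points are genes, red points have an unadjusted limma p under 0.05 (not shown for members), vertical bars are medians, and the lowest row gives the 25th to 75th (box) and 5th to 95th (line) percentiles of all 12740 tested genes. *Ifi27l2a* at −1.42 lies apart from the other members and from the list genes, whose differences run from −0.36 to 0.68.

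The 5 genes whose profile was most like that of *Ifi27l2a*, by root mean square difference of centred log2(FPKM + 1) values over the 5 libraries, were *Eif3j2* (0.443), *Rps16* (0.477), *Fxyd3* (0.496), *Ntn5* (0.5) and *Rps4y2* (0.504). *Rps16*, a ribosomal protein gene, was at 330 and 290 FPKM in controls and 227, 103 and 184 FPKM in cKO, lowest in cKO 2 as *Ifi27l2a* was. *Fxyd3* likewise was listed at 0 in cKO 2. *Rps16*, *Ntn5* and *Rps4y2* were below both controls in every cKO library. In cKO 3, though, *Fxyd3* was at 2.83 FPKM, above its controls at 1.8 and 1.54 FPKM. *Eif3j2* was at 27 FPKM there, above its controls at 21.7 and 19.9 FPKM. The ranking selected such profiles, so their likeness is no support.

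The libraries held about 5500000 to 7300000 mapped fragments, as estimated from the steps of low FPKM values. The estimate rested on 15 genes in control 1 and 18 in cKO 1, against 190 to 203 in each of the rest. *Hdac1* itself was at 8.95 and 13.1 FPKM in controls and 1.95, 3.12 and 3.37 FPKM in cKO, a difference of −1.66 (limma SE 0.21, adjusted p = 0.219, or 0.00389 with the set of libraries as a block), and every cKO library lay below both controls. Markers of brain cells were present in each library, with 10 neuron markers summing to 2538 and 2753 FPKM in controls and 2403 to 2674 FPKM in cKO. Of these 10, 9 were lower in cKO, 2 of them without overlap (9.41% of all tested genes), and 1 was called lower at an unadjusted p under 0.05 in limma (1.99% of all tested genes). The remaining marker, *Map2*, was higher without overlap. In whole tissue, fewer cells of a type and less RNA per cell cannot be told apart.

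Markers of cells that may carry interferon-stimulated genes were therefore set beside the *Ifi27l2a* levels. The 10 microglia markers summed to 237 and 291 FPKM in controls and 239 to 292 FPKM in cKO, none of the 10 was called, and the groups overlapped. The 10 endothelial markers summed to 114 and 116 FPKM in controls and 99.5, 98.5 and 127 FPKM in cKO 1, 2 and 3, also with no call. Of these 10, 4 were higher and 6 lower in cKO. Their sum was below both controls in cKO 1 and cKO 2 and above them in cKO 3. Among the cKO libraries it was highest in cKO 3, as *Ifi27l2a* was, and nearly equal in cKO 1 and cKO 2. For 5 markers of border macrophages the sums were 3.31 to 3.59 FPKM and 2.67 to 4.16 FPKM. The 10 blood leukocyte markers summed to 2.65 and 4.34 FPKM in controls and to 2.72, 2.38 and 1.29 FPKM in cKO, with *Cd3e*, *Ly6c2* and *Ngp* at 0 in all libraries. The choroid plexus, which lies outside the hippocampus, varied far more. Its 6 markers summed to 167 and 6.63 FPKM in controls and 75.3, 604 and 25.6 FPKM in cKO. The 4 red cell markers summed to 103 and 28.8 FPKM in controls and to 32.6, 55 and 29.4 FPKM in cKO. The part of these cells in the *Ifi27l2a* difference was not tested.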

How the data were processed

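The deposited values are FPKM (sequenced fragments scaled to transcript length and to the mapped fragments of a library), which the authors made from TruSeq total RNA libraries with Tophat2 and Cufflinks 2.0.0 on mm9. Use of read strand and handling of shared reads are not given in the sources used here. Each of 5 files lists 23361 genes. No per-sample column was left unused. Groups and replicate numbers came from the sample titles.

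Differences were computed on log2(FPKM + 1), which understates changes of low genes, with limma 3.58.1 in R 4.3.3 (lmFit, eBayes with trend, genotype only, two-sided, Benjamini-Hochberg over the 12740 genes averaging 1 FPKM or more). The SE of a member is its own, from the fit with no filter, and the p of a member is not reported. The script was tested on simulated data. Gene models came from GENCODE vM1 (mm9), promoters from RefSeq (GRCm38.p6), and identities from blastn 2.17.0.

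Fragments were estimated as FPKM × (transcript length − 160 nt) × mapped fragments. Among single-transcript genes with 1 to 20 fragments, 78.8% to 79.4% fell within 0.1 of a whole number in control 2, cKO 2 and cKO 3, against 20% for values with no steps, but 29.2% and 31.7% in control 1 and cKO 1, where estimates are approximate. Step ratios were shared by 24.6% to 28.4% of low genes within a set of libraries and by 3.71% to 4.64% across sets. What the sets stand for is not given in the labels.

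The members and gene lists were chosen with earlier results of these data known. Named genes were the 9 members and their Ifi27 relatives, receptor and signalling genes (1 is not reported here), list genes under an unadjusted p of 0.05 or with the 2 largest differences in each direction, *Hdac1*, and the 5 genes most like *Ifi27l2a*. *I830012O16Rik* was added after its values were seen. Alternatives were a pseudocount of 0.1, no filter, a minimum of 5 FPKM, median-ratio and common-total (TPM) scaling, no trend, a replicate block, a set block and leaving out each library.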

Additional observations from a re-analysis of the deposited data

How the results depend on the processing

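Over the 10 alternatives counted here, the *Ifi27l2a* difference was −2.8 (pseudocount 0.1) to −1.4 with all libraries kept. It was −1.84 to −1.06 with each library left out in turn. Its sign could not turn in the leave-outs, since every cKO library lay below both controls. The gene was also chosen for this fall, so no support is drawn from these values. The number of members lower in cKO ranged from 3 to 6 with a library left out, and their median was −0.17 without control 2. The number of genes past a fold of 1.5 and an unadjusted p of 0.05 was 84, and became 142 with a pseudocount of 0.1, 43 with a minimum of 5 FPKM (fewer genes tested), 166 with TPM scaling, 133 with a replicate block and 92 to 234 with a library left out. The number past an adjusted p was 1, against 24 when no filter was set, 14 under the replicate block and 5 under the set block. With a cKO library left out it was 1 to 3. Replicate numbers were not taken as pairs, since there are only 2 and no label ties them (correlations of deviations 0.402 and 0.269). Called interferon effectors went from 2 to 0 with a minimum of 5 FPKM, 1 with TPM scaling and 0 to 2 with a cKO library left out. They were 3 under the set block, all higher (*Ifit2*, *Ifitm1* and *Gbp3*), and 3 under the replicate block, of which *Ifitm3* was lower. Called nucleic acid sensing genes went from 1 to 0 with that minimum, with TPM scaling and with the replicate block. With a cKO library left out they were 0 to 1. For antigen presentation the call was lost (0) with TPM scaling and with the replicate block, and counts without a cKO library were 0 to 1. In these 2 settings *H2-K1* differed by 0.24 and 0.22 (0.29 in the main fit) and *Tlr3* by 0.34 and 0.32 (0.36). *Ifit2*, also not called in either, differed by 0.33 and 0.37 (0.34). *Hdac1* became significant in limma under both blocks, at −1.77 (adjusted p = 0.0115) with replicate number and −1.74 (adjusted p = 0.00389) with set. Under the replicate block cKO 3 had no weight in the difference, since no control shares its number. The differences there equal those without cKO 3. Apart from this and the smaller number of genes at the higher minimum, the cause of these changes was not tested. With a pseudocount of 0.1 *Oasl2* was −0.45, *Ifit1* −0.18 and *Usp18* −0.10, while *Isg15* was 0.66 and *Irf7* 0.34. Depth is one limit: *Usp18*, for example, rests on 8 estimated fragments in controls and 9 in cKO.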
